A study of Mus musculus with 3 samples.

Results

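The 36 genes described here encode the proteins that carry glucose from the plasma membrane to lactate or to the mitochondrial pyruvate dehydrogenase step, and some of their regulators. They were chosen by gene symbol from a list of glucose transporters, glycolytic enzymes, lactate and pyruvate dehydrogenases, pyruvate dehydrogenase kinases, monocarboxylate transporters and Hif1a. Of the 54532 genes in the tables, 37 carried one of these symbols, because Aldoa had a second entry (ENSMUSG00000114515) with 2, 1 and 0 counts that was left out. FPKM are fragments per kilobase of gene, here scaled by the DESeq2 size factor of the library and not by its total counts. A value of 1 or more was reached by 34 of the 36 genes in some library. Slc2a4 and Pfkfb1 stayed below that level in every library.

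Glycolysis splits glucose into pyruvate in the cytosol. Hexokinase traps glucose as glucose 6-phosphate, phosphofructokinase sets the committed step, and the lower part of the pathway returns ATP and NADH. Pyruvate is then either reduced to lactate, which leaves the cell through monocarboxylate transporters, or oxidised by the pyruvate dehydrogenase complex, which the PDK kinases switch off. Many steps have isoform genes with different tissue patterns. Striated muscle is known for HK2, PGAM2 and ENO3, and the adult heart draws most of its energy from fatty acids, with PDK4 holding back glucose oxidation.

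The study sought factor cocktails that reprogram cultured cardiac fibroblasts from infarcted adult mouse hearts (MICFs) toward cardiomyocytes (iCMs), and the libraries compare such cells with MICFs. All 3 groups came from Myh6-mCherry mice, in which the cardiomyocyte promoter of Myh6 drives a red fluorescent protein, and the fibroblasts were isolated 5 days after ligation of the left anterior descending artery in animals 8 weeks old. The GMTMS-iCMs had received doxycycline-inducible lentiviruses for Gata4, Mef2c, Tbx5, Myocd and Sall4. The GMTMM-iCMs were described as having Mesp1 in place of Sall4. Both iCM groups were kept in inducing medium with doxycycline at 1 µg/ml, sorted for mCherry after 4 weeks, and mixed from 5 sorted samples each. MICFs were cultured as long without virus, so virus, doxycycline, medium, sorting and reprogramming cannot be told apart in any comparison with them. The same holds for the sex of the animals, since MICFs had 0 Y-linked counts and 11855 of Xist, against 1630 and 5279 in GMTMS-iCMs and 1926 and 1618 in the library described as GMTMM. Each group was 1 RNA-seq library, so no difference below has a replicate check and no p-value is given. Intervals are 95% exact intervals on the counts and cover counting error only, because no group has a replicate. Sequenced fragments copied by PCR are not independent molecules, so the intervals may be too narrow even for that error.

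The libraries held 11861773 counts (MICFs), 10624118 counts (GMTMS-iCMs) and 11904484 counts (labelled GMTMM). Mesp1 had 0 counts in all 3 libraries, and Sall4 had 0, 1190 and 1060 counts, which goes against the label of the last library. That library is therefore called the GMTMM-labelled library throughout, and values given as a set of 3 follow this order of libraries. A count of 0 allows up to 0.253, 0.282 and 0.252 CPM (counts scaled to the library total) at 3 counts a library. Summed FPKM of 6 cardiomyocyte markers was 1.28 in MICFs, with 3 of the 6 at 0 counts, 675 in GMTMS-iCMs and 241 in the last library. Macrophage markers (7 genes) were high in all 3 libraries, the sorted ones included, at 8270, 15874 and 7555 summed FPKM, with none at 0 counts. Fibroblast markers (6 genes) summed to 1312, 192 and 2489, and endothelial markers (5 genes) to 316, 9.86 and 239. Smooth muscle markers (4 genes) summed to 206, 388 and 511. The part that these cell mixtures played in the results below was not tested. In bulk RNA, fewer cells of a type and less RNA per cell cannot be told apart.

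Both reprogrammed libraries carried more mRNA of a limited set of isoform genes than MICFs. Most of the abundant enzymes of the main glycolytic chain differed little after quantile normalization and were moderately higher on deposited FPKM. Eno1 was an exception, lower by 0.87 and 0.52 after quantile normalization. On deposited FPKM it was 0.790-fold (0.750 to 0.831) in GMTMS-iCMs and 0.990-fold (0.947 to 1.03) in the GMTMM-labelled library. The genes higher in both reprogrammed libraries were Slc2a1, Slc2a3, Hk2, Pfkfb3, Pgam2, Eno3, Pdk4 and Slc16a1. These 8 genes passed a difference of 1 on the scale used throughout, log2(quantile-normalized FPKM + 1). Hk3 and Aldoc passed it in GMTMS-iCMs, and Eno2, Ldhb and Slc16a3 in the GMTMM-labelled library. Both comparisons use the same MICF library.

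In GMTMS-iCMs against MICFs, 10 of the 36 genes (27.8%) passed it upward and 0 downward. Among the 13919 genes with an FPKM of at least 1 in a library, 12.1% were higher and 10.7% were lower by the same measure. In the GMTMM-labelled library against MICFs, 11 of the 36 (30.6%) were higher and 0 were lower, beside 8.31% and 5.09% of expressed genes. The share of genes higher was thus above the background share in both comparisons, and the share lower was below it. The median difference of the 36 genes was 0.12 in GMTMS-iCMs and 0.21 in the GMTMM-labelled library, against -0.04 and -0.08 over expressed genes. On CPM, which shifted the median of expressed genes to -0.37 and -0.22, the split in the GMTMM-labelled library became 11 higher and 2 lower (Pfkfb2 and Pfkfb4).

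**Figure D1:**
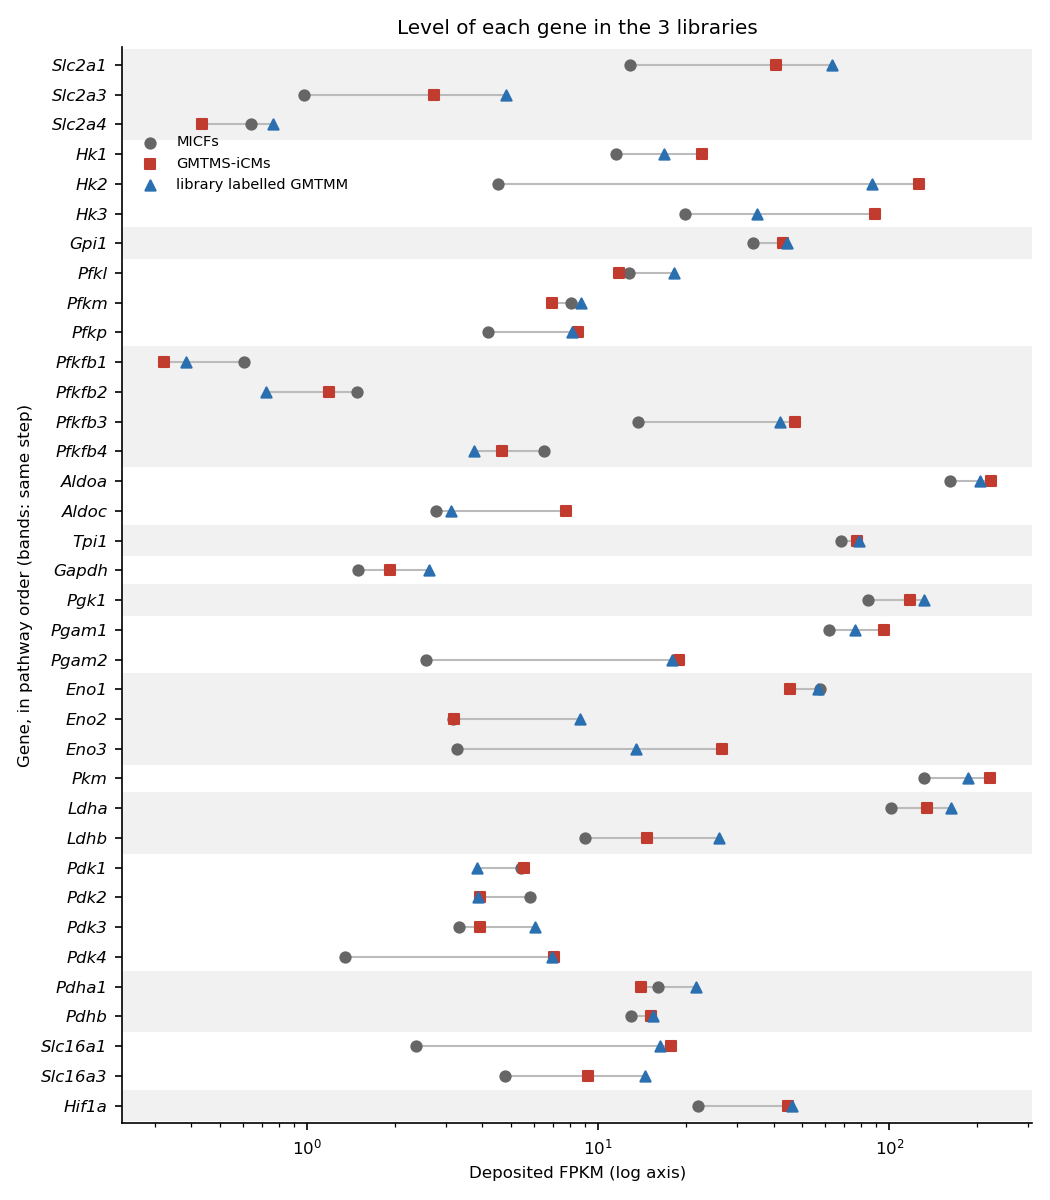
Deposited FPKM (log axis) of each of the 36 genes in the 3 libraries, ordered along the pathway, with 1 point per library and bands marking genes of the same step. Circles are MICFs, squares GMTMS-iCMs and triangles the GMTMM-labelled library. Hk2 spans the widest range, from 4.52 in MICFs to 126 in GMTMS-iCMs, whereas Tpi1 lies between 68.2 and 78.8 in all 3.

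Quantile normalization bears on the abundant genes. Deposited FPKM of the 1000 most highly expressed genes had a median log2 difference of 0.50 and 0.49 from MICFs, and that of the 36 genes was 0.47 and 0.52. After quantile normalization the medians of those abundant genes were -0.12 and -0.07. The sign of the difference from MICFs changed with the scaling for Gpi1, Aldoa, Tpi1 and Ldha in both comparisons, for Pgk1 in GMTMS-iCMs, and for Pgam1 and Pkm in the GMTMM-labelled library. Ratios of 2 genes within 1 library are free of any factor applied to a whole library, and they are therefore given beside the folds. They are taken on deposited FPKM and still move under quantile normalization, which shifts genes by their level.

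**Figure D2:**
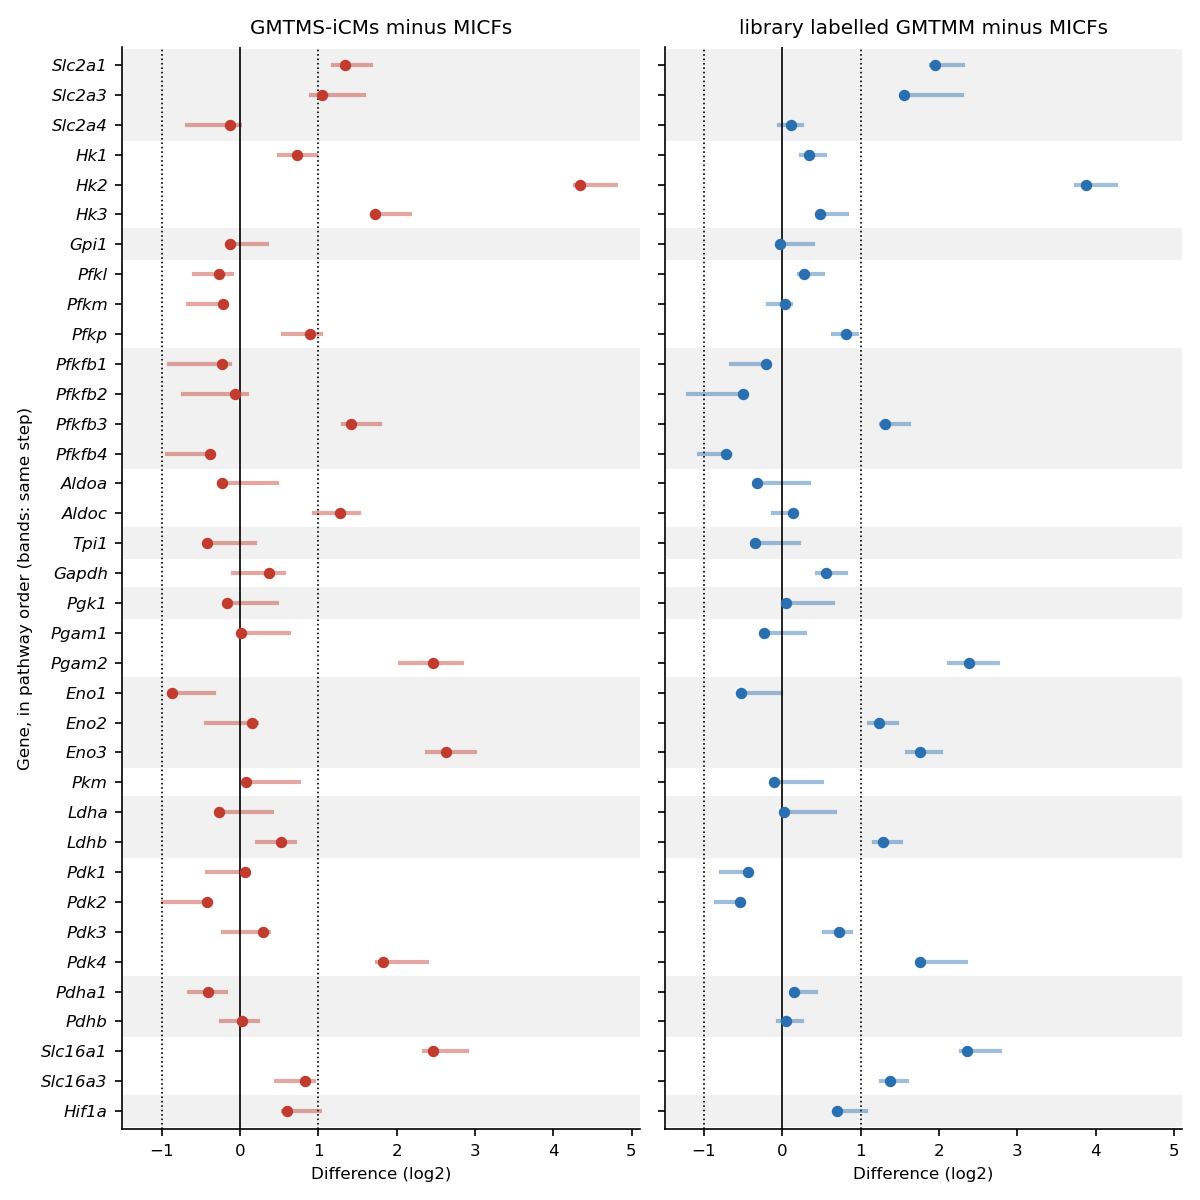
Difference from MICFs in log2(quantile-normalized FPKM + 1) for each gene, GMTMS-iCMs on the left and the GMTMM-labelled library on the right. Points are the values of the text, bars the range over 11 ways of scaling and filtering (10 for Slc2a4 and Pfkfb1), and dotted lines a difference of 1 either way. The bars of Hk2, Pgam2, Eno3, Pdk4 and Slc16a1 lie past 1 in both panels, and those of Aldoa, Tpi1 and Gpi1 cross 0 in both.

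Slc2a1, which encodes GLUT1, the basal glucose transporter of most cells, was the most abundant of the 3 glucose transporter genes by FPKM. It lies at chr4:119108711-119137983 and had 646, 1331 and 2605 counts, or 12.8, 40.9 and 63.6 FPKM. Against MICFs this was 3.19-fold (interval 2.90 to 3.51) in GMTMS-iCMs and 4.97-fold (4.56 to 5.42) in the GMTMM-labelled library. MICFs were thus the lowest of the 3 and the GMTMM-labelled library the highest. Slc2a3, which encodes the high-affinity transporter GLUT3, had 102, 183 and 409 counts. Its folds over MICFs were 2.78 (2.17 to 3.58) and 4.94 (3.97 to 6.20), and its ratio to Slc2a1 changed by 0.871-fold (0.667 to 1.14) and 0.994-fold (0.784 to 1.27), so that the balance of these transporters was not distinguishable between libraries at this depth. Slc2a4, the insulin-regulated GLUT4 of muscle and fat, had only 32, 14 and 31 counts. Its own folds over MICFs were 0.678 (0.334 to 1.31) and 1.19 (0.704 to 2.02), neither distinguishable from no change. Its ratio to Slc2a1, which was itself higher, was 4.71-fold below MICFs (2.42 to 9.61) in GMTMS-iCMs and 4.16-fold below (2.44 to 7.11) in the GMTMM-labelled library. Slc2a1 made up 88.8%, 92.8% and 91.9% of the FPKM of the 3 transporter genes.

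The widest difference among the 36 genes was that of Hk2 (ENSMUSG00000000628, chr6:82725025-82774454, minus strand), the mitochondria-bound hexokinase of muscle and of highly glycolytic cells. MICFs had 388 counts, GMTMS-iCMs 7011 and the GMTMM-labelled library 6052, or 4.52, 126 and 86.8 FPKM. Both reprogrammed libraries were far above MICFs, by 28.0-fold (25.3 to 31.1) and 19.2-fold (17.3 to 21.3), a difference of 4.34 and 3.88 on the log2 scale. Ranked by FPKM among all genes, Hk2 moved from place 7384 in MICFs to places 410 and 582. Hk1, the hexokinase of most tissues, had 1415, 1798 and 1676 counts and stayed under a difference of 1, at 0.72 and 0.34. The ratio of Hk2 to Hk1 FPKM was 0.392, 5.57 and 5.16. It changed 14.2-fold (12.5 to 16.1) and 13.2-fold (11.6 to 15.0), so that Hk2 went from below Hk1 to above it. No 50-base word of the longest Hk2 transcript occurs in another annotated gene.

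The 250 bases before the RefSeq start of Hk2 (GRCm38.p6, chr6:82774455-82774704, minus strand, 5′ to 3′) are shown because no other gene described here differed as widely and because they hold the core that HIF-1 binds. Capitals mark the letters CACGT, as which the motif ACGTG reads on the other strand, at 226 to 222 and at 52 to 48 bases before the start.
Hk2: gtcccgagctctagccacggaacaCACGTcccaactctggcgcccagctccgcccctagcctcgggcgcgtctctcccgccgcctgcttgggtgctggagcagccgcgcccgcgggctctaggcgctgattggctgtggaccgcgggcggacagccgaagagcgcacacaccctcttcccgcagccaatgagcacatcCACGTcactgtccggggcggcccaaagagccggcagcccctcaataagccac
RefSeq promoter windows of 250 bases before to 50 after a start were given for 34 of the 36 genes, in 53 windows. ACGTG, searched on both strands, was in at least 1 window of 20 of the 34 genes (58.8%), beside 21.8% of all 27025 genes, and in 45.3% of the 53 windows beside 19.6% of all 32851. CACGTG, which contains ACGTG, was in 7 of the 34 (20.6%) beside 8.09% of all genes. Of the 8 genes higher in both reprogrammed libraries, Slc2a1, Hk2, Pfkfb3 and Slc16a1 held ACGTG, Pgam2, Eno3 and Pdk4 held none in these windows, and Slc2a3 had no window. Genes that differed little, such as Aldoa, Pgk1, Pkm and Ldha, held it as well. A match is only a string of letters, and binding was not measured.

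Hk3, a hexokinase best known from myeloid cells, had 1048, 3047 and 1504 counts, or 19.8, 89.1 and 35.0 FPKM. GMTMS-iCMs stood apart from both others, at 4.50-fold (4.20 to 4.84) over MICFs and 2.55-fold (2.39 to 2.71) over the GMTMM-labelled library. The latter exceeded MICFs by 1.77-fold (1.63 to 1.91), a difference of 0.48. Summed macrophage markers were likewise highest in GMTMS-iCMs, at 1.92 times MICFs, with the GMTMM-labelled library at 0.914 times MICFs. Csf3r, the G-CSF receptor of the neutrophil list, had 563, 1435 and 675 counts, while S100a8, S100a9 and Cxcr2 had at most 2 counts in any library. Their part in the Hk3 difference was not tested. By share of hexokinase FPKM, Hk3 led in MICFs (55.2%), ahead of Hk1 (32.2%) and Hk2 (12.6%). Hk2 led in GMTMS-iCMs (53.1%) and in the GMTMM-labelled library (62.6%). All 3 hexokinases together held 4.01%, 15.7% and 9.64% of the summed FPKM of the 36 genes.

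**Figure D3:**
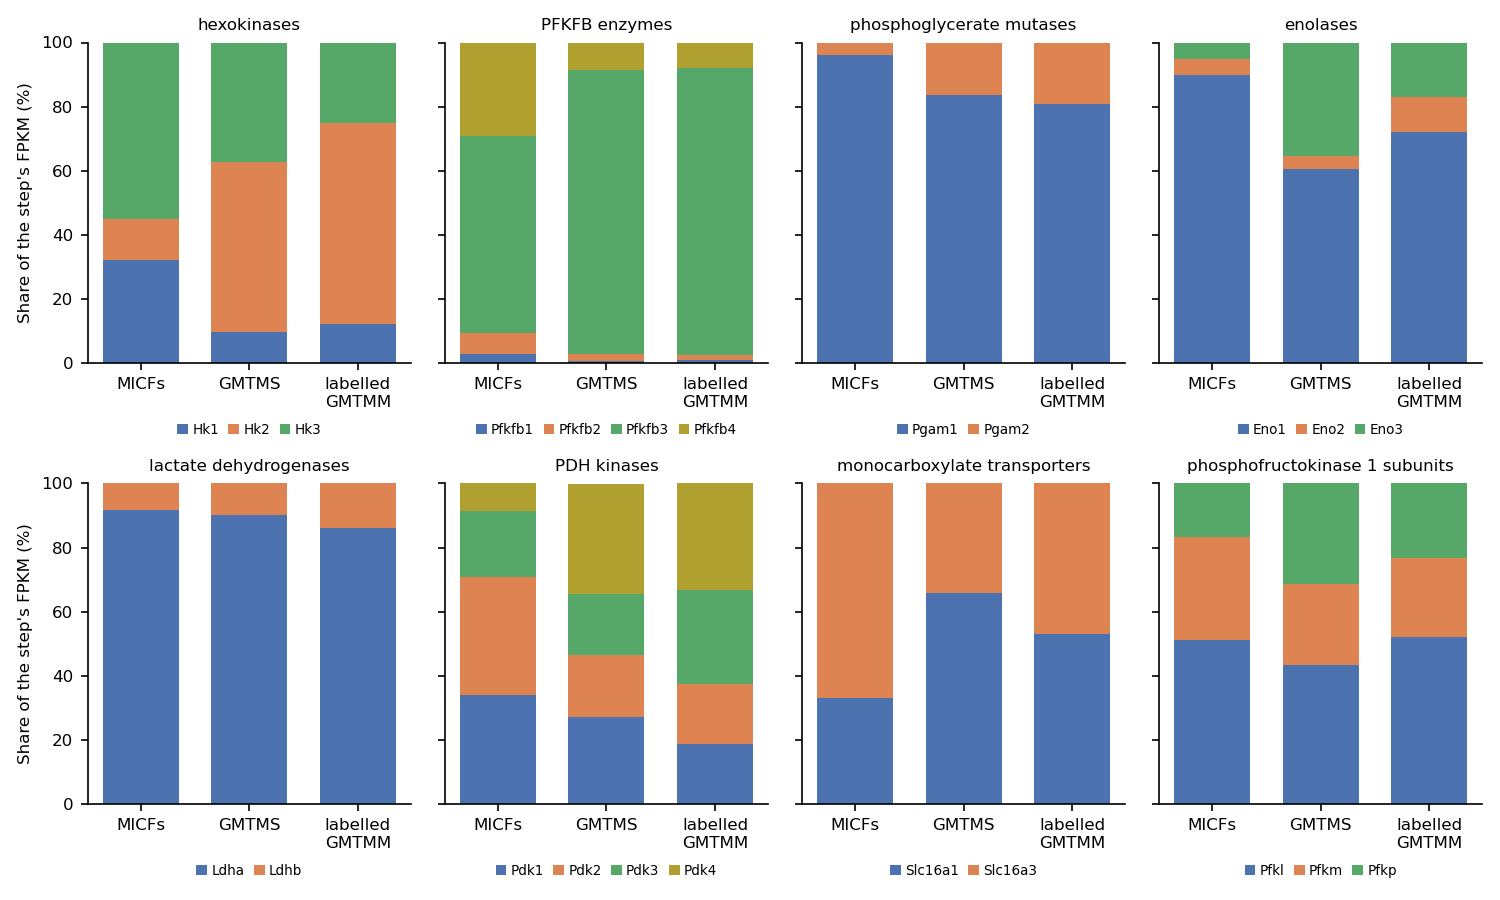
Share (%) of the summed FPKM of a step held by each of its isoform genes, with 1 stacked bar per library and 1 panel for each of 8 steps. The Hk2 segment grows from 12.6% to 53.1% and 62.6%, the Eno3 segment from 5.12% to 35.4% and 17.0%, and the Pdk4 segment from 8.46% to 34.4% and 33.4%, while Ldha holds at least 86.2% of its step in every library.

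At the phosphofructokinase step, Pfkp was the subunit that differed most from MICFs, and Pfkfb3 was the only one of 4 PFKFB regulators past the threshold. Pfkl (liver type) had 1222, 728 and 1421 counts, Pfkm (muscle type) 387, 215 and 340, and Pfkp (platelet type) 807, 1060 and 1270. None of the 3 passed a difference of 1, although Pfkp came close at 0.90 and 0.81 and was 2.03-fold (1.86 to 2.23) and 1.94-fold (1.77 to 2.12) above MICFs on deposited FPKM. The Pfkp to Pfkl ratio was 2.20-fold (1.93 to 2.51) higher in GMTMS-iCMs than in MICFs and 1.35-fold (1.20 to 1.52) higher in the GMTMM-labelled library. For the muscle subunit the ratio to Pfkl changed by 0.933-fold (0.767 to 1.13) and 0.756-fold (0.639 to 0.894), the former not distinguishable from no change. Gpi1, the isomerase just before this step, had 3156, 2589 and 3361 counts and differed from MICFs by -0.12 and -0.03 on the log2 scale.

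Among the PFKFB enzymes, which make and break down the activator of phosphofructokinase, Pfkfb3 has the highest kinase activity relative to its phosphatase. Its counts were 1488, 3328 and 3707 (13.7, 47.4 and 42.0 FPKM). The folds over MICFs were 3.46 (3.26 to 3.69) and 3.07 (2.89 to 3.26), and both reprogrammed libraries lay above MICFs by similar amounts. Its 3 relatives passed a difference of 1 in neither direction. On deposited FPKM, Pfkfb2 was 2.06-fold (1.52 to 2.82) and Pfkfb4 1.75-fold (1.48 to 2.06) below MICFs in the GMTMM-labelled library. In GMTMS-iCMs, Pfkfb4 was 1.40-fold (1.19 to 1.66) below, and the interval of Pfkfb2 held 1. The interval of Pfkfb1 held 1 in both. Pfkfb4 had 458, 211 and 213 counts, Pfkfb2 155, 80 and 61, and Pfkfb1 35, 12 and 18. Relative to Pfkfb3, Pfkfb4 stood 4.85-fold (4.07 to 5.81) and 5.36-fold (4.49 to 6.40) below its place in MICFs, and Pfkfb2 stood 4.33-fold (3.26 to 5.79) and 6.33-fold (4.65 to 8.71) below. Pfkfb3 thereby went from 61.3% to 88.5% and 89.7% of the FPKM of the 4 genes. Of the 50-base words of the longest Pfkfb2 transcript, 26.1% also occur in another gene. Pfkfb1 is X-linked, and the Xist and Y-linked counts of the libraries are given above.

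The most abundant enzymes of the chain from aldolase to pyruvate kinase stayed under the threshold, with differences that depended on the scaling. Aldoa, the muscle and general aldolase, had 6742, 6022 and 6934 counts, and Tpi1, triosephosphate isomerase, had 2700, 1985 and 2533. Pgk1, phosphoglycerate kinase, had 2721, 2449 and 3459 counts, and Pkm, pyruvate kinase of muscle and most other tissues, had 9433, 10311 and 10886. None of these 4 genes passed a difference of 1 in any comparison, their differences from MICFs running from -0.42 to 0.08. On deposited FPKM they were all above MICFs, Pkm by 1.69-fold (1.65 to 1.74) and 1.42-fold (1.38 to 1.46), Pgk1 by 1.39-fold (1.32 to 1.47) and 1.57-fold (1.49 to 1.65), Aldoa by 1.38-fold and 1.27-fold, and Tpi1 by 1.14-fold and 1.16-fold. By FPKM, Aldoa and Pkm were the most abundant of the 36 genes in MICFs (161 and 131) and remained so in GMTMS-iCMs (223 and 222) and in the GMTMM-labelled library (204 and 186). Pkm counts are over all its transcripts and do not separate the M1 and M2 splice forms. Of the 50-base words in the longest transcript, 68.0% for Pgk1 and 34.4% for Pkm also occur in another gene, so their counts depend on how shared reads were handled. Pgk1 is X-linked.

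Aldoc, the aldolase best known from brain, had 130, 235 and 119 counts. GMTMS-iCMs were the highest, at 2.80-fold (2.25 to 3.50) over MICFs and 2.48-fold (1.98 to 3.12) over the GMTMM-labelled library, while the latter and MICFs were not distinguishable at this depth (1.13-fold, 0.872 to 1.46). The Aldoc to Aldoa ratio was 2.02-fold (1.62 to 2.53) higher in GMTMS-iCMs than in MICFs. Aldoc stayed a minor form, with at most 3.36% of aldolase FPKM.

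Gapdh had only 89, 74 and 126 counts (1.50, 1.93 and 2.61 FPKM), far below its neighbours in the pathway, although its enzyme is among the most abundant in most cells. Of the 50-base words of its transcript Gapdh-201, 90.4% also occur in transcripts of another gene, and 222 other genes share such words with it. The share was 27.8% for its longest transcript and ran from 33.3% to 94.6% over its 6 protein-coding transcripts. Its counts depend on how such reads were handled, and its folds are not read here. The study's own PCR primers for Gapdh are shown because each also matched transcripts of other genes.
Gapdh forward primer: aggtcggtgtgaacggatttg
Gapdh reverse primer: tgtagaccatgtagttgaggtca
The forward primer matched transcripts of 55 other annotated genes exactly and the reverse primer those of 139, each on either strand, beside Gapdh itself. Genes that match both primers were not counted, and amplification was not tested.

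Phosphoglycerate mutase showed a gain of the muscle form. Pgam2, the muscle subunit, had 31, 148 and 176 counts (2.56, 19.0 and 17.9 FPKM). Its folds over MICFs were 7.40 (5.00 to 11.3) and 6.99 (4.75 to 10.6), with both reprogrammed libraries well above MICFs and not distinguishable from each other (1.06-fold, 0.844 to 1.32). Pgam1, the general form, had 1634, 1633 and 1623 counts. The Pgam2 to Pgam1 ratio was 4.78-fold (3.20 to 7.32) and 5.72-fold (3.86 to 8.72) higher than in MICFs, and Pgam2 went from 3.97% to 16.5% and 19.1% of the FPKM of the step. Pgam1 shares 41.5% of its 50-base words with other genes and Pgam2 none.

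The 250 bases before the RefSeq start of Pgam2 (GRCm38.p6, chr11:5803797-5804046, minus strand, 5′ to 3′) are shown because MEF2 factors, one of which was in both cocktails, bind an AT-rich motif that these bases hold. Capitals mark the match to the MEF2 consensus, at 80 to 71 bases before the RefSeq start. The gene as counted begins at chr11:5803733, downstream of that start, so the match lies farther from the start of the counted gene. Bases just after the RefSeq start were not found in the longest Pgam2 transcript, unlike for Hk2 and Slc16a1.
Pgam2: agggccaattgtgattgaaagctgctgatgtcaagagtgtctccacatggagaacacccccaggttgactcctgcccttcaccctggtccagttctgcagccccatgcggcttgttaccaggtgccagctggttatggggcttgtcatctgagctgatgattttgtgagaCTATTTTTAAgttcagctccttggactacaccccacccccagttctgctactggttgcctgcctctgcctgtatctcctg
The MEF2 consensus was searched after the values were seen. It was found for 2 of the 34 genes with a promoter window, Pgam2 and Pfkfb1, or 5.88% beside 3.70% of all genes, and binding was not measured. The other gene, Pfkfb1, was not higher in either reprogrammed library. The SRF consensus was found for 1 of the 34 genes, Ldha (2.94% beside 1.81% of all genes).

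Enolase showed the same shift toward the muscle form. Eno3, the muscle form, had 82, 430 and 273 counts (3.28, 26.6 and 13.4 FPKM). It was 8.12-fold (6.40 to 10.4) and 4.10-fold (3.19 to 5.32) above MICFs, and 1.98-fold (1.70 to 2.31) higher in GMTMS-iCMs than in the GMTMM-labelled library. Eno1, the general form, had 4454, 2270 and 3580 counts and was the lowest in GMTMS-iCMs. The Eno3 to Eno1 ratio was 10.3-fold (8.06 to 13.3) and 4.14-fold (3.21 to 5.39) higher than in MICFs, the widest change of a pair after Hk2 to Hk1 in GMTMS-iCMs. Eno2, the neuronal form, behaved differently, with 214, 139 and 475 counts. The GMTMM-labelled library was the highest, at 2.73-fold (2.32 to 3.23) over MICFs, whereas GMTMS-iCMs were not distinguishable from MICFs (1.01-fold, 0.807 to 1.25). Eno1 shares 72.2% of its 50-base words with other genes, Eno2 0.255% and Eno3 none. The counts of Eno1, and so the ratios to it, depend on how shared reads were handled.

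Cardiomyocyte markers as a list stood higher in GMTMS-iCMs than in the GMTMM-labelled library (2.80 times by summed FPKM), and so did macrophage markers (2.10 times). The fibroblast and endothelial lists stood lower. The smooth muscle list was mixed, at 0.758 times by summed FPKM. Of its genes, Myh11 (1.37-fold, 1.32 to 1.43) and Cnn1 (1.22-fold, 1.06 to 1.40) were higher in GMTMS-iCMs. Acta2 was lower (0.675-fold, 0.652 to 0.699), and the interval of Tagln held 1 (0.398 to 1.09). Of the 8 genes higher in both than in MICFs, Eno3 (1.98 times), Hk2 (1.46 times) and Pfkfb3 (1.13 times) were higher in GMTMS-iCMs. Pgam2, Pdk4 and Slc16a1 (1.06, 1.01 and 1.09 times) were not distinguishable, and Slc2a1 and Slc2a3 (0.643 and 0.563 times) were lower. The part of any cell type in these differences was not tested. Acta1 was the only one of 5 skeletal muscle genes to reach an FPKM of 1, with the list summing to 0.145, 103 and 37.3 FPKM. Whether these genes and Eno3 were expressed by the same cells was not tested.

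Most lactate dehydrogenase mRNA was that of Ldha in all libraries. Ldha, the form that favours lactate production, had 4833, 4138 and 6273 counts, and Ldhb, the heart form, had 204, 214 and 477. Over MICFs, Ldhb was 2.88-fold (2.44 to 3.41) in the GMTMM-labelled library, a difference of 1.28, and 1.63-fold (1.34 to 1.98) in GMTMS-iCMs, a difference of 0.53. The Ldhb to Ldha ratio changed 1.80-fold (1.52 to 2.14) and 1.23-fold (1.00 to 1.50), the lower bound for GMTMS-iCMs lying at 1.00. Ldhb held 8.17%, 9.83% and 13.8% of the FPKM of the step. The 50-base words shared with other genes were 16.6% for Ldha and 27.0% for Ldhb.

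Of the pyruvate dehydrogenase kinases, Pdk4 alone passed a difference of 1. Pdk4, the kinase known to be induced by fasting and fatty acids in heart and muscle, had 68, 229 and 284 counts (1.35, 7.02 and 6.92 FPKM). It was 5.22-fold (3.96 to 6.94) and 5.14-fold (3.94 to 6.81) above MICFs, and the reprogrammed libraries were not distinguishable from each other. Pdk1, a HIF-1 target, had 606, 401 and 349 counts, and Pdk2, the most widely expressed form, had 266, 115 and 143. The Pdk4 to Pdk1 ratio was 5.09-fold (3.75 to 6.96) and 7.25-fold (5.35 to 9.89) higher than in MICFs. Pdk2 per Pdk1 was 1.53-fold lower (1.18 to 1.99) in GMTMS-iCMs than in MICFs, and in the GMTMM-labelled library the interval held no change (1.07-fold lower, 0.835 to 1.38). X-linked Pdk3, with 122, 93 and 182 counts, gained 2.59-fold (1.97 to 3.41) on Pdk1 in the GMTMM-labelled library. Pdk4 was the rarest of the 4 kinases in MICFs (8.46% of their FPKM) and the most abundant in both reprogrammed libraries (34.4% and 33.4%).

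The substrate of these kinases, the E1 component of pyruvate dehydrogenase, differed little. Pdha1, its X-linked alpha subunit, had 864, 487 and 944 counts, and Pdhb, the beta subunit, had 718, 542 and 696. Pdhb to Pdha1 was 1.34-fold (1.14 to 1.57) higher in GMTMS-iCMs than in MICFs and 0.887-fold (0.770 to 1.02) in the GMTMM-labelled library. Set against Ldha, which competes for the same pyruvate, Pdha1 stood 1.52-fold (1.35 to 1.71) below MICFs in GMTMS-iCMs and 1.19-fold (1.07 to 1.31) below them in the GMTMM-labelled library, the latter a change of 0.842. On quantile-normalized FPKM the change went from 0.658 to 0.891 in GMTMS-iCMs, outside its counting interval (0.583 to 0.742). For the GMTMM-labelled library it turned to 1.09. Of the Pdha1 words, 16.9% also occur in another gene.

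Lactate and pyruvate cross the plasma membrane through monocarboxylate transporters, and the balance between them shifted. Slc16a1 encodes MCT1, which is known for lactate uptake in oxidative cells and heart. Its counts were 150, 729 and 842 (2.36, 17.7 and 16.3 FPKM), or 7.53-fold (6.31 to 9.04) and 6.91-fold (5.81 to 8.28) above MICFs. Slc16a3 encodes MCT4, the lactate exporter of glycolytic cells, and had 366, 456 and 900 counts. It was 1.93-fold (1.68 to 2.22) and 3.03-fold (2.68 to 3.43) above MICFs. Slc16a1 passed the threshold in both reprogrammed libraries, and Slc16a3 in the GMTMM-labelled library, with a difference of 0.83 in GMTMS-iCMs. Relative to Slc16a1, Slc16a3 stood 3.90-fold (3.10 to 4.91) and 2.28-fold (1.84 to 2.84) below its place in MICFs. Slc16a1 went from 33.0% to 65.8% and 52.9% of the FPKM of the pair. Bsg, whose product basigin carries both transporters to the membrane, had 5162, 2618 and 6334 counts and differed from MICFs by -1.06 in GMTMS-iCMs and by -0.08 in the GMTMM-labelled library. On deposited FPKM it was only 1.27-fold lower (1.21 to 1.33) in the former and was 1.51-fold higher (1.46 to 1.57) in the latter.

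The 250 bases before the RefSeq start of Slc16a1 (GRCm38.p6, chr3:104638414-104638663, plus strand, 5′ to 3′) are shown as the third promoter of a gene that exceeded MICFs by over 2 on the log2 scale in both reprogrammed libraries. Capitals mark CACGTG, an E-box that reads the same on both strands and holds ACGTG on each, at 200 to 195 bases before the start.
Slc16a1: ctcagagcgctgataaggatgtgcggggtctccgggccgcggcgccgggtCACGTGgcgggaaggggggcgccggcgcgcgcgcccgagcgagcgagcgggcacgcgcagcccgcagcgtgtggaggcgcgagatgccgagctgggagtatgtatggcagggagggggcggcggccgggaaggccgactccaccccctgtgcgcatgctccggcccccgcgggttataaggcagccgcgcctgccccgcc
Of the 3 promoters shown, those of Hk2 and Slc16a1 held ACGTG and that of Pgam2 held the MEF2 consensus.

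**Figure D4:**
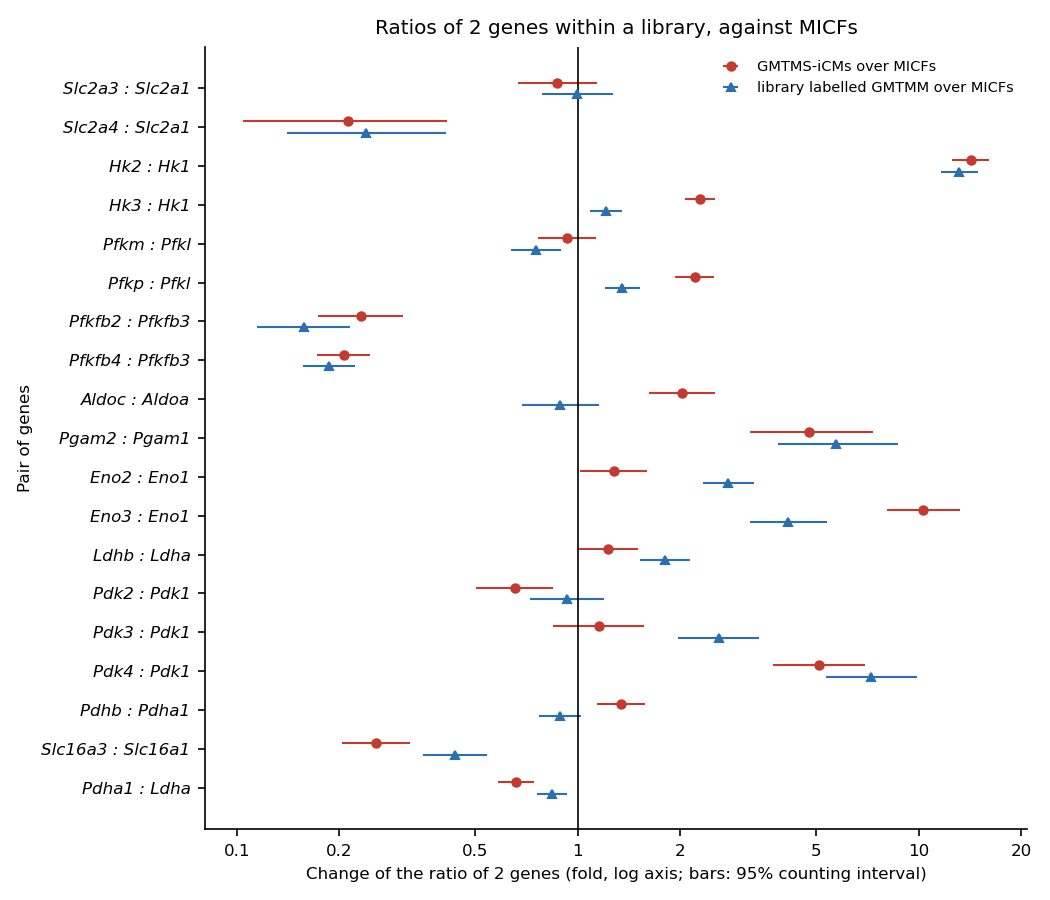
Change of the ratio of 2 genes, each ratio taken within a library, in GMTMS-iCMs (circles) and the GMTMM-labelled library (triangles) over MICFs, for 19 pairs (fold on a log axis, bars are 95% counting intervals). Hk2 to Hk1, Eno3 to Eno1, Pgam2 to Pgam1 and Pdk4 to Pdk1 lie above 2 in both libraries, and Slc2a4 to Slc2a1, Pfkfb2 and Pfkfb4 to Pfkfb3 and Slc16a3 to Slc16a1 lie below 0.5 in both.

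Over the 19 pairs of isoform or competing genes, 11 changed by over 2-fold in either direction in GMTMS-iCMs and 10 in the GMTMM-labelled library. The interval of the change lay above 1 for 10 pairs and below 1 for 6 in GMTMS-iCMs, and above 1 for 9 and below 1 for 6 in the GMTMM-labelled library. Several pairs share a reference gene, such as Slc2a1 or Pdk1, and are not independent. The share of other gene pairs that change as much was not computed, so such counts only describe these pairs. Between the reprogrammed libraries, 4 pairs changed by over 2-fold. In that comparison Aldoc to Aldoa (2.27-fold, 1.81 to 2.87) and Eno3 to Eno1 (2.48-fold, 2.11 to 2.93) were higher in GMTMS-iCMs. Eno2 to Eno1 (2.17-fold, 1.78 to 2.66) and Pdk3 to Pdk1 (2.25-fold, 1.67 to 3.04) were higher in the GMTMM-labelled library.

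Hif1a, which encodes the oxygen-regulated subunit of HIF-1, had 1870, 2456 and 3189 counts (22.0, 44.8 and 46.3 FPKM). It differed from MICFs by 0.60 and 0.70, short of the threshold of 1, although on deposited FPKM it was 2.03-fold (1.92 to 2.16) and 2.10-fold (1.98 to 2.23) higher. HIF-1 activity is set mainly by protein stability, which mRNA does not show. Of 18 other genes for HIF-1 partners, regulators and targets, 1 was higher and 2 were lower by over 1 in GMTMS-iCMs, with a median of -0.18, and 3 were higher and 0 lower in the GMTMM-labelled library, with a median of -0.03. Among expressed genes 12.1% were higher and 10.7% lower in the former and 8.31% and 5.09% in the latter. In GMTMS-iCMs the higher one was Mxi1 (434, 1040 and 1009 counts), which encodes a MYC antagonist. The lower ones were Epas1 (4679, 1453 and 4522 counts), which encodes HIF-2 alpha, and Adm (1595, 130 and 1306 counts), which encodes the vasodilator adrenomedullin. Both Epas1 and Adm are well expressed in endothelium, and the endothelial markers stood at 316, 9.86 and 239 summed FPKM in the same order. Their part in these differences was not tested. In the GMTMM-labelled library the higher ones were Mxi1, Egln3 (316, 182 and 782 counts), which encodes a prolyl hydroxylase acting on HIF, and Ankrd37 (76, 24 and 162 counts). Epas1, Adm, Egln3 and Ankrd37, 4 of the 18, were lower in GMTMS-iCMs than in the GMTMM-labelled library, by -1.27, -2.75, -1.55 and -1.78, beside 11.1% of expressed genes.

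Neighbouring pathways are set beside 12.1% of expressed genes higher and 10.7% lower in GMTMS-iCMs, and 8.31% and 5.09% in the GMTMM-labelled library. Of 28 other glycolysis and gluconeogenesis genes, only 14 reached an FPKM of 1 in a library and 8, 6 and 7 had 0 counts. In this list 1 was higher and 2 were lower in GMTMS-iCMs, and 1 was higher and 0 lower in the GMTMM-labelled library. The higher one in both was Slc2a6, which encodes a glucose transporter family member of lysosomes in macrophages, with 37, 596 and 342 counts. It was 25.0-fold (17.9 to 35.8) and 11.4-fold (8.10 to 16.4) above MICFs, and the macrophage markers are given above, whose part in this was not tested. The lower ones were Bsg, whose 1.27-fold lower deposited FPKM falls short of the threshold, and Slc2a10 (168, 28 and 105 counts), which encodes GLUT10. Slc16a7, which encodes MCT2, had 462, 516 and 197 counts and differed by 1.29 between the reprogrammed libraries. Of 11 genes for mitochondrial pyruvate use and 7 of the pentose phosphate pathway, 0 differed from MICFs by over 1 in either reprogrammed library. Pdpr, which encodes a regulatory subunit of pyruvate dehydrogenase phosphatase, had 298, 195 and 96 counts and differed by 1.04 between these libraries. The pentose phosphate genes had medians of -0.13 and -0.21, and the glycogen genes 0.08 and -0.12. Of 10 glycogen genes, 2 were higher in GMTMS-iCMs, Pygl and Pygm, which encode the liver and muscle glycogen phosphorylases, and 1 was lower in the GMTMM-labelled library, Gyg, which encodes glycogenin. Gyg differed by -1.11 there, but its deposited FPKM was only 1.55-fold lower (1.44 to 1.67). The counts were 219, 374 and 405 (Pygl), 200, 311 and 362 (Pygm) and 1982, 983 and 1037 (Gyg), and Pygl and Pygm in the GMTMM-labelled library lay just under the threshold at 0.94 and 0.99.

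Few of the 36 genes separated GMTMS-iCMs from the GMTMM-labelled library. By a difference over 1, 2 were higher (5.56%) and 1 was lower (2.78%) in GMTMS-iCMs, beside 9.01% higher and 11.1% lower among expressed genes, and the median difference was -0.02. The genes higher were Hk3 and Aldoc and the gene lower was Eno2, each with its counts above. The interval of the fold lay above 1 for 12 genes, below 1 for 13 and held 1 for 11. Below the threshold, Slc2a1, Slc2a3, Ldhb and Slc16a3 were lower in GMTMS-iCMs with folds of 0.643 (0.601 to 0.687), 0.563 (0.470 to 0.671), 0.564 (0.478 to 0.664) and 0.637 (0.568 to 0.714). Hk1, Hk2 and Eno3 were higher, at 1.35 (1.26 to 1.44), 1.46 (1.41 to 1.51) and 1.98 (1.70 to 2.31). Because the label of the latter library is in doubt, these values compare 2 libraries and are not assigned to Sall4 or Mesp1.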

How the data were processed

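RNA-seq was done on total RNA of 3 libraries (MICFs, GMTMS-iCMs and GMTMM-iCMs, 1 each). The authors deposited a table of counts per gene and a table of FPKM. The submitters' processing notes name HISAT2 2.0.5 and mm9, whereas the gene coordinates match GRCm38 (GENCODE M21) for 98.3% of genes and 35 of the 36 described. The counting tool, strand setting and handling of multi-mapped reads were not given in the sources used here. The library size implied by the deposited FPKM was 14389264, 9287868 and 11680913 for the 3 libraries, which are the DESeq2 size factors (1.26, 0.811 and 1.02) times the geometric mean of the totals. The MICF column is headed cMF and was matched because both other columns name their cocktail. No column was without a sample.

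FPKM were quantile-normalized over the 3 libraries and set on log2(value + 1), as in the study's methods, and a difference over 1 was called. This understates the change of low genes. A fold divides one deposited FPKM by another, with a 95% Clopper-Pearson interval from both counts. Pair ratios divide the FPKM of 2 genes of a library, and their change has an exact conditional interval from the 4 counts. Alternatives changed the scaling (edgeR 4.0.16 TMM, DESeq2 1.42.0 size factors, CPM, no quantile normalization), the pseudocount, the filter, the depth and the threshold. Python 3.11.15, SciPy 1.17.1 and R 4.3.3 were used, and the calculations were tested on simulated data. Shared 50-base words were searched on both strands of GENCODE M21 transcripts, and promoters came from RefSeq (GRCm38.p6). Members and gene lists were chosen with earlier results of these data known. Counts in every library are given for genes past a difference of 1 and for those in pairs, and other pathway genes are named where they pass it with over 10 counts and an FPKM of at least 1. Quantile normalization over only the 2 libraries compared, the MEF2 and SRF searches, the 3 promoters shown and the Gapdh primer search were chosen after the values were seen.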

Additional observations from a re-analysis of the deposited data

Results flagged for a closer look

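Pdha1, the X-linked alpha subunit of pyruvate dehydrogenase, stood out because its fold over the same MICF library went in opposite directions in the reprogrammed libraries. It was 0.873-fold (0.780 to 0.977) in GMTMS-iCMs and 1.35-fold (1.23 to 1.48) in the GMTMM-labelled library, with neither interval holding 1. The difference between them was not tested, because each is 1 library against 1. MICFs had 864 counts, GMTMS-iCMs 487 and the GMTMM-labelled library 944. Xist had 11855, 5279 and 1618 counts in the same libraries, and its part in the difference was not tested.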

How the results depend on the processing

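No paired analysis was possible because each group has 1 library, and for the same reason leaving out a replicate could not be run. The median difference of the 36 genes from MICFs rose from 0.12 in GMTMS-iCMs to 0.47 on FPKM as deposited, 0.39 by TMM and 0.47 by DESeq2 size factors, and from 0.21 to 0.52, 0.57 and 0.60 in the GMTMM-labelled library. Deposited FPKM already carry the DESeq2 size factors, so the first and last of these settings share their library scaling. Between the reprogrammed libraries it went from -0.02 to -0.19 on CPM. In the GMTMM-labelled library, the count of genes lower than MICFs went from 0 to 1 with TMM, 1 with DESeq2 size factors and 2 on CPM. With a threshold of 2, 4 genes were higher in GMTMS-iCMs and 3 in the GMTMM-labelled library, and between these libraries 0 were higher and 0 lower. With a threshold of 0.5, 15 were higher and 1 was lower in GMTMS-iCMs, and 3 were lower in the GMTMM-labelled library. Between these libraries 4 were higher and 7 lower. The share of expressed genes past thresholds of 2 and 0.5 was not computed, so these counts have no background beside them. On quantile-normalized FPKM the Pdha1 to Ldha change went from 0.658 to 0.891 in GMTMS-iCMs and from 0.842 to 1.09 in the GMTMM-labelled library. On the same scale Aldoc to Aldoa went from 0.890 to 1.43 in that library and from 2.02 to 3.47 in GMTMS-iCMs, and Slc2a3 to Slc2a1 from 0.994 to 1.24 and from 0.871 to 1.22, and Pfkm to Pfkl from 0.933 to 1.03 in GMTMS-iCMs, where the counting interval held 1 except for Aldoc to Aldoa in GMTMS-iCMs. In GMTMS-iCMs, Eno2 to Eno1 went from 1.27 to 2.11 and Pgam2 to Pgam1 from 4.78 to 7.27. The same counts enter both values, so these shifts come from quantile normalization, which moves genes by their level. Over 11 settings of scaling and filtering, 8 genes stayed over 1 above MICFs in GMTMS-iCMs and 11 in the GMTMM-labelled library. Slc2a3 and Aldoc in GMTMS-iCMs fell to 0.91 and 0.95 at their lowest. The sign of the difference from MICFs changed for 11 and 10 of the 36 genes. Quantile normalization over only the 2 libraries compared left the counts at 10 and 0, 11 and 0, and 2 and 1. With 1 library per group, no spread between cultures or animals is known, and genes with few counts, such as Slc2a4, Pfkfb1 and Pgam2, have wide intervals.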
